A study of Mus musculus with 24 samples.

Results

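The genes described here carry the mouse symbol Zfp followed by a number, the name given to zinc finger proteins that had no other name. They were chosen by the gene name printed on the array and by detection: a probe was included when both replicates gave a signal well above background in untreated elicited peritoneal macrophages (EPM), in bone marrow-derived macrophages (BMDM) given DMSO for 1 h and in untreated B cells. Zfp36 was left out by the same rule. Of 490 probes for 255 such genes, 338 probes for 208 genes met it, among 41174 probes in all. Another 20492 probes, for 14081 genes, met the detection rule under other names or none, and they are the comparison used for the changes. Several probes can belong to 1 gene, so probes are not independent of each other.

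Most proteins in this family carry tandem C2H2 zinc fingers, each a short fold held by a zinc ion that reads a few bases of DNA. Many also carry a KRAB domain, which recruits Trim28 and, through it, Setdb1 and heterochromatin proteins to silence chromatin, above all at transposable elements. Many of the genes multiplied by tandem duplication and sit in clusters. Zfp36, also called tristetraprolin, is of another kind, a CCCH protein that binds AU-rich mRNA and speeds its decay.

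RNA came from C57BL/6 mice. The cells were thioglycollate-elicited peritoneal macrophages, bone marrow-derived macrophages and resting splenic B cells obtained by depleting CD43- and CD11b-expressing cells; the age of the mice was not given. EPM and B cells were untreated, given Kdo2-lipid A (KLA), a lipopolysaccharide core that activates TLR4, for 1 h or 12 h, or given DMSO for 12 h. BMDM received DMSO or KLA for 1 h or 12 h. The comparisons ask how the Zfp transcripts respond to TLR4 activation in each cell type. Each of the 12 conditions was measured on 1 two-channel array, whose Cy5 and Cy3 channels held 2 biological replicates of that condition. A p-value therefore measures a change against the spread between replicates that share an array, pooled over all arrays and cell types. The reported fit keeps differences between the dyes in that spread. Array and condition cannot be told apart. In EPM and B cells the 1 h response was taken against untreated cells, so KLA and its vehicle cannot be told apart there. Each cell type filled its own slide. The share of probes well above background ran from 57.4% to 65% over the 24 channels, and the number of arrays limits the precision.

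The B cell labels conflict. In the authors' table of normalized values, 20 of 24 columns were closest to the array of their own condition. The other 4, B cells given KLA for 1 h and B cells given DMSO for 12 h, were closest to each other's arrays. The labels of the scanner files were followed, and B cell counts and named B cell changes are also given with these 2 labels exchanged. By the scanner labels, in the order untreated, KLA 1 h, DMSO 12 h and KLA 12 h, the median of 4 erythroid markers in B cells was 9.72, 9.85, 8.60 and 8.36. Lck, a T cell marker, stood at 10.11, 10.03, 11.43 and 11.37. Il1b was well above background in untreated B cells (7.09 and 7.22) and after KLA for 1 h (7.17 and 7.23) and in neither 12 h condition. Every EPM and BMDM condition detected 8 of 8 macrophage markers, and every B cell condition 8 of 8 B cell markers. Markers of other cells were detected too: 5 to 7 of 8 B cell markers in EPM and BMDM, with Blnk the highest there, and 4 or 5 of 8 macrophage markers and 3 of 4 erythroid markers in B cells. By the scanner labels, the highest macrophage marker in B cells was Lyzs in untreated cells (8.31) and after KLA for 1 h (8.13). At 12 h it was Emr1, with DMSO (10.88) and with KLA (10.61). Of 6 neutrophil markers, 4 were detected in EPM and 6 in BMDM. The part of such cells in the results was not tested.

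The values that chose the probes are a description. Among Zfp probes, 69% were well above background in all 6 early control channels, against 50.4% of the other probes on the array, and 14.7% in none of them, against 28%. Of the 490, 374 (76.3%, against 62.3% of the other probes on the array) were detected in both channels of untreated EPM, 359 (73.3%, against 58.8%) in BMDM given DMSO for 1 h and 380 (77.6%, against 57.4%) in untreated B cells. B cells alone detected 24 (4.9%, against 4.37%), EPM alone 13 (2.65%, against 3.8%) and BMDM alone 2 (0.408%, against 1.54%). On the normalized log2 intensity scale, the lowest value called well above background lay between 5.44 and 6.16 over the channels. Some values not well above background were higher than this. The members' median level was 7.77 in untreated EPM, 7.93 in BMDM given DMSO for 1 h and 8.58 in untreated B cells. The other probes had medians of 8.64, 8.70 and 8.77. The brightest members were Zfp313, Zfp710 and Zfp639. The dimmest that met the rule were Zfp398, at 6.23 and 6.15 in untreated EPM, and Zfp316, at 6.19 and 6.32. Just outside were Zfp704, detected in 5 of 6 channels, at 6.24 and 6.10 in untreated B cells, and Zfp119, at 6.14 and 6.21 in untreated EPM.

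KLA acted on both macrophage types. Tnf rose from 9.60 and 9.62 to 16.31 and 16.37 in EPM at 1 h and from 12.27 and 12.32 to 16.16 and 16.32 in BMDM. In B cells Tnf changed at 1 h by 0.19 as labelled (adjusted p 0.156) and by -1.06 with the labels exchanged (adjusted p 1.97e-09). At 12 h it changed by 0.43 (adjusted p 0.00128), or -0.82 exchanged (adjusted p 5.73e-08). Cxcl10 in B cells was at background on the array labelled DMSO 12 h (6.11 and 6.23) and above it on the other 3. As labelled, it was at least 2.87-fold higher after KLA for 12 h, and with the labels exchanged it rose by 0.86 (adjusted p 0.000352). At 1 h it changed by 0.09 as labelled (adjusted p 0.843), and exchanged it went from above background to background. The excluded gene Zfp36 moved with Tnf: its first probe went from 11.05 and 11.14 to 13.04 and 13.18 in EPM at 1 h, and from 10.87 and 10.76 to 13.59 and 13.72 in BMDM. Its rises were 2.01 and 2.84 on the log2 scale. The numbered Zfp genes mostly went the other way.

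A probe was called changed when limma's adjusted p was below 0.05 over all 30727 probes tested. At 1 h in EPM, 175 of 338 Zfp probes (51.8%) were called lower after KLA, against 21.4% of the other probes. Only 23 (6.8%) were called higher, against 10.8%. In BMDM at 1 h, 168 (49.7%) were called lower, against 20.0%, and 17 (5.03%) higher, against 10.6%. The lower calls covered 137 genes in EPM and 127 in BMDM. A share lower in these groups can reflect fewer cells that express a gene or less of its RNA per cell, which bulk RNA cannot tell apart. The median log2 change of the members was -0.24 in EPM and -0.23 in BMDM, against -0.06 and -0.05 for the other probes. Of the 338 changes, 271 were negative in EPM (80.2%, against 62.6%) and 264 in BMDM (78.1%, against 61.1%). Each replicate taken alone gave a member median of -0.23 in both cell types. The calls rest on the spread between channels of an array. With array means as samples, both control arrays of a cell type were taken as replicates, which also changes the contrast. In that fit limma called 8 members lower in EPM (2.37%, against 0.107% of the other probes) and 4 in BMDM (1.18%, against 0.0635%). Of the members, 15 probes in EPM (4.44%, against 0.381% of the other probes) and 18 in BMDM (5.33%, against 0.332%) were called lower and had fallen more than 2-fold.

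**Figure D1:**
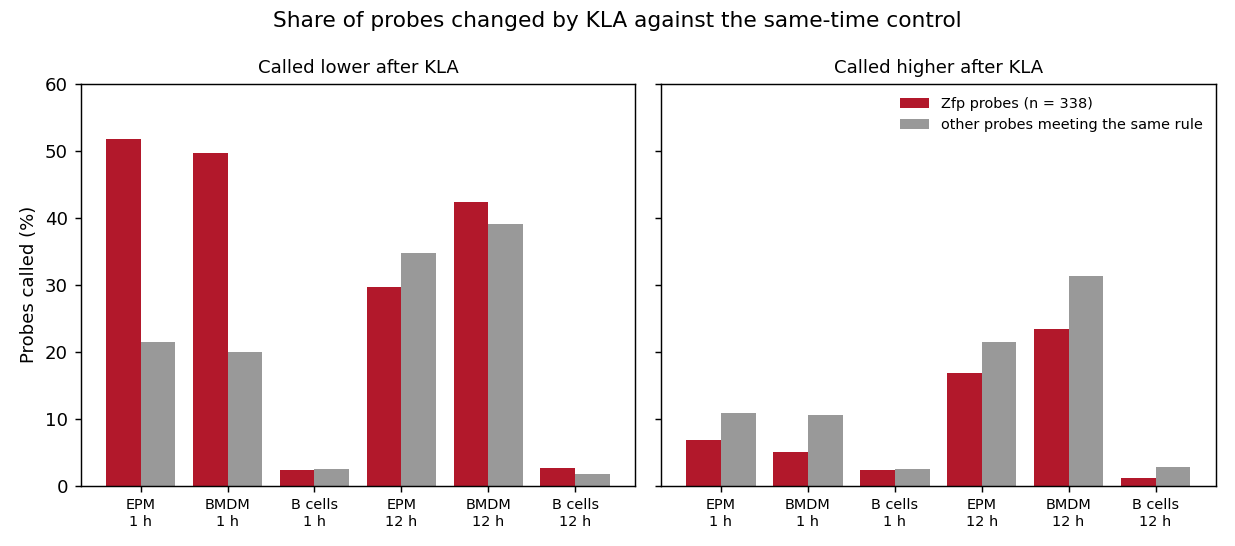
Bars give the percent of probes called lower (left) or higher (right) after KLA in each cell type at 1 h and 12 h, for the 338 Zfp probes (red) and the other probes meeting the detection rule (grey). At 1 h in macrophages the red bars for lower calls stand at 51.8% and 49.7%, beside grey bars of 21.4% and 20.0%.

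The detection rule used the control arrays of the 1 h comparisons. When KLA at 1 h was set against the 12 h DMSO control, whose arrays the rule did not use, 186 Zfp probes (55%, against 25.7%) were called lower in EPM, 162 of them among the 175. In BMDM 189 (55.9%, against 26.3%) were called lower, 158 of them among the 168. Both comparisons of a cell type use the same KLA array, so much of this overlap is built in. An effect of that array would appear in both, and the overlap was not counted for the other probes. The macrophage controls themselves moved less. Between the early and the 12 h control, 29 members (8.58%) were lower and 34 (10.1%) higher in EPM, against 8.79% and 7.98% of the other probes. In BMDM the counts were 34 (10.1%) and 40 (11.8%), against 11.0% and 11.5%. In B cells they were 77 (22.8%) and 92 (27.2%), against 29.4% and 24.7%, or 8 and 8 with the labels exchanged (2.37% each, against 2.49% and 2.45%). The member medians of the EPM and BMDM control comparisons were 0.02 and 0.02.

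Probes were also compared by brightness, using the early control level, which the detection rule used too and from which the 1 h changes start. In 4 equal bins, from dim to bright, 40.2%, 55.6%, 63.7% and 45.5% of members were called lower in EPM at 1 h. The other probes of the same bins gave 8.69%, 20.7%, 25.4% and 30.6%. In BMDM the members gave 43.3%, 57.3%, 55% and 34.1%, against 12.1%, 20.1%, 22.8% and 24.9%. In both cell types the gap was smallest among the brightest probes, of which 44 were members.

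The EPM and BMDM comparisons share no samples. Of the members called lower at 1 h, 137 probes of 108 genes were called in both, 78.3% of the EPM list and 81.5% of the BMDM list. For the other probes these shares were 56.9% and 61%. Probes called lower in both made up 40.5% of all members, against 12.2% of all the other probes. Lower calls were more common among members (51.8% and 49.7%, against 21.4% and 20.0%). More overlap is therefore built in for members, and the list shares do not compare how well the cell types agree. Across the 338 probes, which are not independent replicates and share arrays within a condition, the 2 sets of changes had a Pearson r of 0.81 and a Spearman rho of 0.80. The 20492 other probes gave 0.79 and 0.62. Of the rises, 8 probes were called higher in both, 34.8% of the EPM list and 47.1% of the BMDM list, against 52.7% and 53.9% for the other probes. These shares too start from unequal call rates, 6.8% and 5.03% of members against 10.8% and 10.6% of the other probes.

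**Figure D2:**
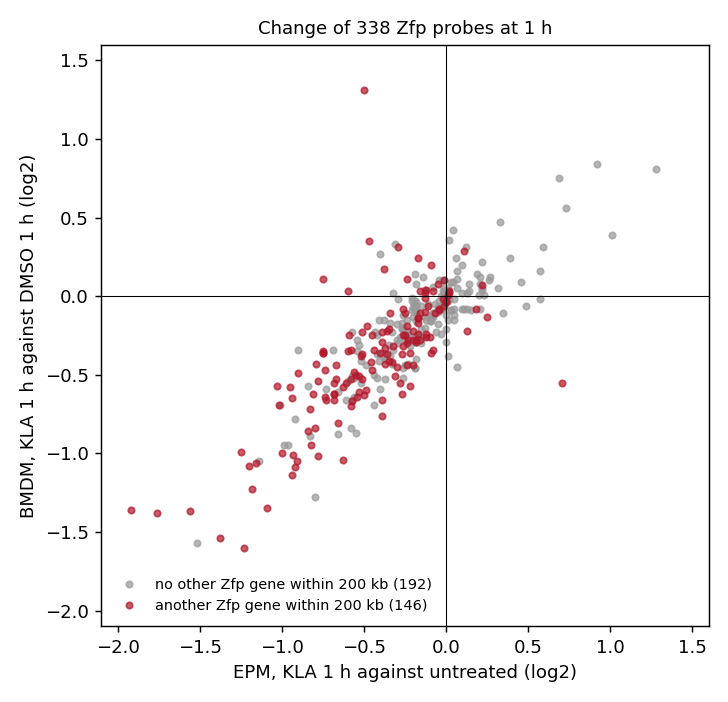
Each point is 1 of the 338 Zfp probes, with its log2 change after KLA for 1 h in EPM on the horizontal axis and in BMDM on the vertical axis. Red points, with another Zfp gene within 200 kb, make up most of the lower left, and Zfp93 (-0.50, 1.31) and Zfp94, whose BMDM value after KLA was at background, lie far from the rest.

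The largest fall in EPM was that of Zfp12, a KRAB zinc finger gene (NM_177681, probe at chr5:143512955-143513014, plus strand, mm8). Its levels were 10.05 and 9.92 in untreated EPM and 8.13 and 8.01 after KLA for 1 h. Both KLA channels lay below both control channels, with a log2 change of -1.92 (SE 0.07, adjusted p 1.35e-13). In BMDM, Zfp12 went from 9.96 and 9.83 to 8.54 and 8.54, a change of -1.36 (adjusted p 2.37e-11). The fall lasted: at 12 h it stood at 9.14 and 9.09 in EPM beside DMSO values of 10.10 and 10.16, and at 8.80 and 8.81 in BMDM beside 10.09 and 10.05. The 12 h changes were -1.01 and -1.27. B cells held the gene at a higher level, 11.64 and 11.60 untreated and 11.49 and 11.46 after KLA for 1 h. That B cell change, -0.15, did not pass the threshold (adjusted p 0.239), and with the labels exchanged it was called as a rise of 0.52.

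Zfp61, another KRAB gene, lies on chromosome 7 (NM_009561, chr7:23999877-23999936, minus strand, mm8). It stood at 9.71 and 9.51 in untreated EPM and at 8.02 and 7.69 after KLA for 1 h, a change of -1.76 (adjusted p 1.34e-08). In BMDM it went from 9.65 and 9.51 to 8.29 and 8.12, a change of -1.38 (adjusted p 3.93e-07). By 12 h the macrophages had parted. EPM given KLA read 9.61 and 9.39, overlapping no DMSO value (9.92 and 9.72) yet short of the threshold (-0.32, adjusted p 0.0659). BMDM still read 8.70 and 8.54 against 9.95 and 9.68, a change of -1.19, and the 12 h responses differed by 0.88 (adjusted p 0.00138). The second probe of Zfp61 was called lower in all 4 macrophage comparisons.

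Zfp82 (NM_177889, chr7:29764947-29765006, minus strand, mm8) read 8.24 and 8.02 in untreated EPM and 6.67 and 6.48 after KLA for 1 h, a change of -1.56 (adjusted p 2.46e-09). In BMDM it went from 8.25 and 8.06 to 6.80 and 6.78, a change of -1.37 (adjusted p 1.6e-08). The KLA values approached background in both cell types. At 12 h the falls were smaller, -0.40 in EPM and -0.80 in BMDM. Zfp472 (NM_153063, chr17:32717031-32717090, plus strand, mm8) went from 8.69 and 8.62 to 7.29 and 7.27 in EPM and from 8.74 and 8.70 to 7.18 and 7.17 in BMDM at 1 h. Those changes were -1.38 and -1.54, with no overlap between KLA and control channels. A second probe of the same transcript gave -1.23 and -1.60, the latter the largest fall in BMDM.

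Zfp273 (NM_198322, chr13:68325853-68325912, plus strand, mm8) stood at 7.67 and 7.72 in untreated EPM and at 6.12 and 6.23, not well above background, after KLA for 1 h. It was at least 2.87-fold lower there. In BMDM it went from 8.04 and 7.82 to 6.42 and 6.29, a change of -1.57 (adjusted p 4.5e-10). At 12 h EPM had returned to 7.54 and 7.41, close to the DMSO values of 7.64 and 7.75 (-0.22, adjusted p 0.0726). BMDM still read lower with this probe, at 7.20 and 7.12 against 7.97 and 7.87. Its 3 probes were all called lower at 1 h in both cell types, the smallest changes being -0.22 in EPM and -0.32 in BMDM. In BMDM at 12 h they disagreed, from -0.76 to 0.42, with 2 called lower and 1 higher.

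**Figure D3:**
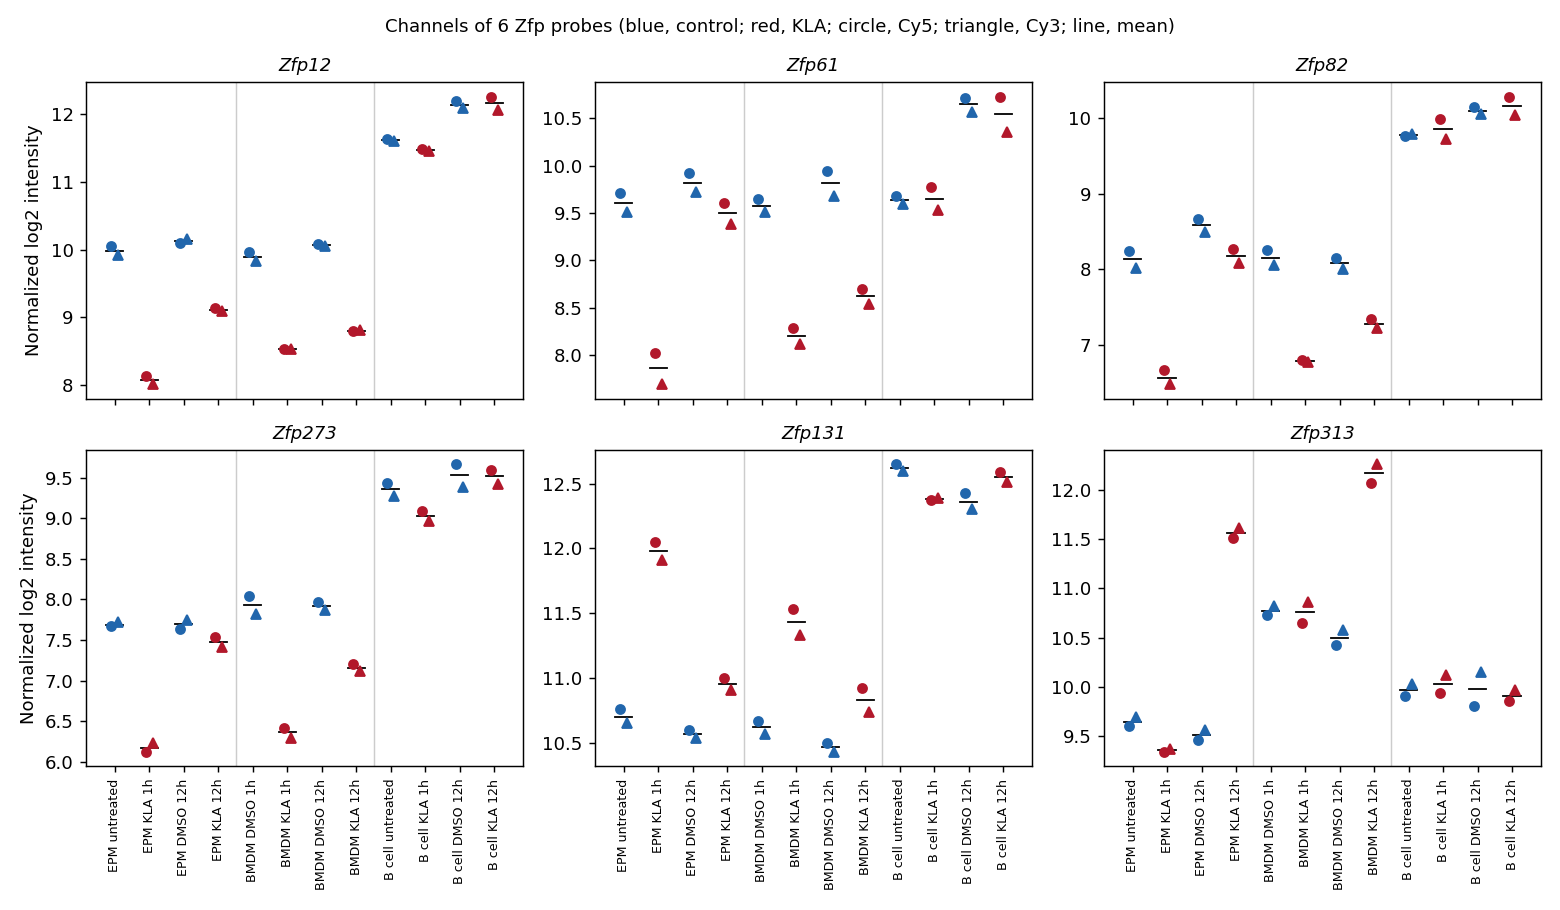
Normalized log2 intensity (vertical axis) of 6 Zfp probes in the 12 conditions, with circles for Cy5, triangles for Cy3, blue for controls, red for KLA and a line at each mean. Zfp12, Zfp61, Zfp82 and Zfp273 fall at 1 h in EPM and BMDM, Zfp131 rises at 1 h, and Zfp313 rises at 12 h.

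The rises at 1 h were few. Zfp131, whose protein has a BTB domain, stood at 10.76 and 10.65 in untreated EPM and 12.05 and 11.91 after KLA. In BMDM it went from 10.67 and 10.57 to 11.53 and 11.33. These changes, 1.28 (adjusted p 4.15e-10) and 0.81 (adjusted p 2.69e-07), were followed by smaller rises at 12 h of 0.38 and 0.36. A probe of Zfp451, a SUMO ligase, rose from 6.60 and 6.58 to 7.65 and 7.54 in EPM and from 6.85 and 6.68 to 7.21 and 7.11 in BMDM. The response in EPM, 1.01, exceeded that in BMDM, 0.39, by 0.62 (adjusted p 0.000281). The 4 probes of Zfp451 ran from -0.19 to 1.01 in EPM, with 2 called higher, and from -0.08 to 0.39 in BMDM, with 1 called higher. At 12 h all 4 were called higher in EPM, while in BMDM 3 were called lower and 1 higher. For Zfp263, all 3 probes rose in both macrophage types at 1 h. Its brightest went from 10.70 and 10.63 to 11.67 and 11.51 in EPM, a rise of 0.92, and from 11.65 and 11.71 to 12.53 and 12.51 in BMDM, a rise of 0.84. At 12 h that probe was called changed in neither, while the other 2 were called higher in EPM (0.43 and 0.45) and 1 of them in BMDM (0.28).

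At 12 h in EPM, 100 members (29.6%) were lower and 57 (16.9%) higher, against 34.7% and 21.4% of the other probes. With changes centred on the median of all probes meeting the detection rule, the counts were 82 and 82 (24.3% each, against 28.8% and 26.6%). That shift did not match probes by brightness. With array means as samples the counts were 3 and 8 (0.888% and 2.37%, against 5.45% and 5.44%). In BMDM 143 (42.3%) were lower and 79 (23.4%) higher, against 39.1% and 31.3%. The member medians were -0.05 in EPM and -0.12 in BMDM, against -0.07 and -0.04. With array means BMDM gave 29 and 13 (8.58% and 3.85%, against 12.1% and 9.84%). The BMDM split also depended on the scaling. With loess within arrays alone, 63.3% of members were lower and 10.9% higher, against 52% and 19.8% of the other probes. The medians there were -0.32 for members and -0.23 for the other probes. The 12 h response minus the 1 h response was called positive for 145 members in EPM (42.9%, against 20.4%) and negative for 30 (8.88%, against 23.6%). In BMDM the counts were 131 (38.8%, against 27.2%) and 62 (18.3%, against 30.2%). Among the 137 probes lower in both macrophage types at 1 h, the median change went from -0.55 at 1 h to -0.13 at 12 h in EPM and from -0.53 to -0.22 in BMDM. These probes were picked for their 1 h fall, so part of a move toward 0 is built in. The other probes picked in this way went from -0.37 to -0.22 and from -0.36 to -0.30. At 12 h 55 of them (40.1%) were still called lower in EPM and 73 (53.3%) in BMDM, while 15 (10.9%) and 24 (17.5%) were called higher. Of the 2494 other probes lower in both at 1 h, 53.1% and 58.9% were still lower and 13.6% and 18.8% higher. Across all members, 46 probes (13.6%) were lower in all 4 macrophage comparisons and 5 (1.48%) higher, against 5.25% and 2.86% of the other probes. Changes at 1 h and 12 h were related across probes with a Pearson r of 0.32 in EPM and 0.28 in BMDM over the 338 members, and of 0.38 and 0.37 over the other probes.

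The largest rise at 12 h came from a gene that is no longer counted in the family. Zfp313, now Rnf114, encodes a RING finger ubiquitin ligase (NM_030743, chr2:167205879-167205937, plus strand, mm8). It stood at 9.46 and 9.56 in EPM given DMSO for 12 h and at 11.51 and 11.61 after KLA, a change of 2.05 (adjusted p 4.87e-12). In BMDM it went from 10.42 and 10.58 to 12.07 and 12.26, a change of 1.67 (adjusted p 6.65e-11). Its second, brighter probe rose by 1.97 and 1.36. At 1 h the first probe was lower by a little in EPM (-0.29, adjusted p 0.0489) and not called in BMDM.

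Several other members rose at 12 h in at least 1 macrophage type. Zfp319 went from 7.98 and 8.15 to 9.57 and 9.69 in BMDM, a rise of 1.57, and from 7.72 and 7.85 to 8.45 and 8.69 in EPM, a rise of 0.78. The same probe had fallen at 1 h in both, with changes of -0.87 in BMDM and -0.55 in EPM. All 3 Zfp319 probes were called higher in BMDM at 12 h, the smallest rise being 0.25, but in EPM they ran from -0.21 to 0.78, with 1 called lower and 2 higher. Zfp281 went from 10.16 and 10.37 to 11.69 and 11.82 in BMDM at 12 h, a rise of 1.48, and rose by 0.56 in EPM. A probe of Zfp26 rose by 1.13 in BMDM and 0.67 in EPM, and 3 of its 5 probes were called higher in each. Zfp296 rose in EPM, from 7.23 and 7.07 to 8.15 and 8.09, and not in BMDM, where it read 7.14 and 7.01 with DMSO and 7.02 and 6.99 with KLA. Those 2 responses differed by 1.04 (adjusted p 1.26e-06), but a second Zfp296 probe showed a rise of only 0.14 in EPM. Zfp385, now Zfp385a, rose in both, by 0.78 and 0.80.

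Zfp692 had the largest 12 h fall, in BMDM, from 9.65 and 9.65 to 7.73 and 7.94, a change of -1.82 (adjusted p 6.13e-13). In EPM it went from 9.11 and 9.16 to 8.23 and 8.14, a change of -0.95. It was not called at 1 h in either, so its fall was late. Zfp511 was also late, with changes of -0.95 in EPM and -0.55 in BMDM at 12 h and of -0.01 and 0.05 at 1 h. Zfp41 (-1.34) and Zfp764 (-1.20), in contrast, were lower in BMDM at both times. For Zfp191, now Zfp24, 1 of 3 probes was called lower in EPM at 12 h, from 7.52 and 7.66 to 6.54 and 6.48, and the 3 changes ran from -1.08 to 0.22. The DMSO control of that probe at 12 h was itself above the untreated value (6.46 and 6.40), so the KLA channels matched untreated cells more than the vehicle control. Zfp251 fell by 0.91 in EPM, from 10.01 and 10.23 to 9.04 and 9.38.

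Tested directly, the 1 h responses of EPM and BMDM differed for few members: 21 (6.21%) were lower in EPM than in BMDM and 12 (3.55%) higher, against 4.23% and 4.05% of the other probes. With the dye as a replicate block, the paired fit gave 10.7% and 7.99%, against 8.58% and 8.19%. With array means as samples, limma called 0 members either way at 1 h and at 12 h. The adjusted p-values of single differences below rest on the spread between channels. At 12 h, 43 (12.7%) were lower and 82 (24.3%) higher, against 23.7% and 22.8%, and in these differences the slide cannot be told apart from the cell type. Without the quantile step the 12 h shares were 2.66% and 53.8%, against 9.3% and 44.3%. At 1 h 5 probes (1.48%) were called lower in EPM and higher in BMDM and 1 (0.296%) the reverse, against 0.273% and 0.234% of the other probes. Neighbours of Zfp61 on chromosome 7 stood out. Zfp93 (chr7:23985269-23985328, plus strand, mm8) went from 6.97 and 6.88 to 6.42 and 6.43 in EPM and from 7.17 and 7.14 to 8.59 and 8.34 in BMDM at 1 h. Its changes, -0.50 and 1.31, differed by -1.81 (adjusted p 7.54e-10). Zfp94 (chr7:24010959-24011018, minus strand, mm8) did the opposite: it rose from 6.36 and 6.47 to 7.04 and 7.21 in EPM, while in BMDM it went from 6.81 and 6.82 to 6.29 and 6.24, not well above background and at least 1.46-fold lower. A fitted difference between its responses depends on that background value and is not an exact size. Zfp61, Zfp93 and Zfp94 thus had 3 patterns at 1 h, with Zfp61 falling in both cell types. A probe of Zfp655 was lower in EPM (-0.47) and higher in BMDM (0.35), and over its 4 probes 3 were called lower in EPM and 2 higher in BMDM.

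At 12 h Zfp523 went from 9.99 and 9.95 to 10.18 and 10.28 in EPM, a rise of 0.26, and from 10.15 and 10.24 to 9.47 and 9.46 in BMDM, a change of -0.73. A probe of Zfp451 in another stretch of the gene was likewise higher in EPM (0.27) and lower in BMDM (-0.71), unlike the Zfp451 probe that rose in all 4 comparisons. A probe of Zfp291, now Scaper, was lower in EPM (-0.43, adjusted p 0.0127) and higher in BMDM (0.33, adjusted p 0.046), while its other 2 were not called in EPM.

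In B cells, at 1 h 8 members (2.37%) were called lower and 8 (2.37%) higher, against 2.49% and 2.45% of the other probes, with medians of -0.03 and 0. At 12 h 9 (2.66%) were lower and 4 (1.18%) higher, against 1.70% and 2.73%. With the labels exchanged, the 1 h counts became 77 and 92 (22.8% and 27.2%, against 29.4% and 24.7%) and the 12 h counts 88 and 93 (26% and 27.5%, against 30.9% and 26.5%). The counts as labelled also depended on the fit. With the dye as a replicate block, 37 (10.9%) were lower and 19 (5.62%) higher at 1 h, against 7.44% and 7.25%, and 16 (4.73%) and 8 (2.37%) at 12 h, against 4.48% and 6.03%. With loess within arrays alone, 48 (14.2%) were lower and 4 (1.18%) higher at 1 h, against 9.69% and 0.888%. The EPM response at 1 h minus the B cell response was negative for 132 members (39.1%, against 12.7%) and positive for 22 (6.51%, against 8.33%). For BMDM the counts were 119 (35.2%, against 9.39%) and 12 (3.55%, against 6.71%). With the labels exchanged they were 153 and 44 for EPM (45.3% and 13%, against 26.9% and 22.4%) and 164 and 42 for BMDM (48.5% and 12.4%, against 26.7% and 23.1%).

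The named B cell changes shifted with the labels. A probe of Zfp655 stood at 7.21 and 7.18 in untreated B cells and at 8.57 and 8.55 after KLA for 1 h, a rise of 1.37 (adjusted p 1.98e-09), or 0.89 with the labels exchanged. Its other named probe showed no such rise (-0.05). Zfp608 went from 7.89 and 7.94 to 9.08 and 9.05, a rise of 1.15 (adjusted p 2.17e-09) that became -0.34 with the labels exchanged. Zfp691 rose by 0.48, or 1.03. The falls at 1 h were small: Zfp667 changed by -0.39 (-0.41 exchanged), Zfp75 by -0.35 (0.63 exchanged) and Zfp51 by -0.32 (-0.39 exchanged). At 12 h Zfp606 went from 8.25 and 8.11 to 7.30 and 7.19, a change of -0.93 (adjusted p 1.86e-06), or -0.57 exchanged. The others at 12 h were Zfp95, now Zkscan5, at 0.37 (-0.08 exchanged), Zfp593 at 0.32 (-0.21), Zfp291 at 0.31 (0.78), Zfp451 at -0.47 (0.21) and a probe of Zfp296 at -0.45 (-0.13). Only Zfp655, Zfp691, Zfp667, Zfp51, Zfp291, Zfp606 and Zfp296 of these kept their sign under both labellings. The Zfp296 probe was no longer called with the labels exchanged (adjusted p 0.295).

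What the members share beyond the rule was described after the changes were seen. RefSeq symbols could be given to 337 of the 338 probes. Those that kept a Zfp name (300 probes, 183 genes) were lower at 1 h in 52.7% of cases in EPM and 51.0% in BMDM. Those now named Zbtb, Zkscan or Zscan (17 probes, 14 genes) gave 70.6% and 64.7%. The 10 genes since given other names, among them Rnf112, Rnf114, Rnf115, Arfgap2, Scaper and Ltn1, gave 20.0% and 15.0% over 20 probes, with medians of 0 and -0.02. Among probes outside the Zfp names that met the detection rule, the shares were 21.4% and 20.0%, with medians of -0.06 and -0.05. Differences between these name groups were not tested.

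Members were also split by position. With another Zfp member gene within 200 kb (146 probes, 94 genes), 67.8% were called lower at 1 h in EPM and 68.5% in BMDM, with medians of -0.39 and -0.36. Without one (192 probes, 114 genes), the shares were 39.6% and 35.4%, with medians of -0.15 and -0.13. Probes outside the Zfp names that met the detection rule gave 21.4% and 20.0%, with medians of -0.06 and -0.05. At 12 h the shares were 36.3% and 52.1% for the first group and 24.5% and 34.9% for the second. Beside these, probes outside the Zfp names gave 34.7% and 39.1%. The median early control levels of these groups, 7.80 and 8.28, also differed. The difference between these groups was not tested.

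RefSeq promoters (GRCm38.p6, the bases around each gene's start) were found for 170 of the 208 genes, 219 promoters in all, and are set beside 11989 promoters of the other genes meeting the detection rule. The median GC content was 58.7%, against 60.3%, and the ratio of observed to expected CpG 0.74 in both. Motifs were searched on both strands, and overlapping matches were allowed. TATAAA was present in 8.68% of member promoters, against 7.95%, and an NF-kB motif in 3.65%, against 5.04%. CCGGAAG was present in 22.4% against 17.4%, GCCATNTT in 11.4% against 8.36%, CGCATGCG in 4.57% against 3.71% and TGACGTCA in 4.57% against 3.00%. GGGCGG was present in 53.0% against 60.3%, CCAAT in 37.0% against 37.7% and CTCGCGAG in 0.913% against 1.85%. Among members, CCGGAAG was present in 28.3% of the 106 promoters of genes lower in both macrophage types at 1 h and in 16.8% of the other 113, GGGCGG in 47.2% and 58.4%, and TGACGTCA in 3.77% and 5.31%. In the same order, the shares were 40.6% and 33.6% for CCAAT, 6.6% and 10.6% for TATAAA and 5.66% and 3.54% for CGCATGCG. They were 12.3% and 10.6% for GCCATNTT, 2.83% and 4.42% for the NF-kB motif and 0% and 1.77% for CTCGCGAG. None of these differences was tested. A match describes letters and is not a binding site. The 150 bases before the start are shown from RefSeq, to let their base composition be compared, for the 6 genes with the 5 largest falls at 1 h in EPM or BMDM or among the 5 largest mean falls of probes lower in all 4 macrophage comparisons. Capitals mark CCGGAAG, CGCATGCG or GCCATNTT on either strand, and the sequences without capitals hold none of these 3.
Zfp12, chr5:143235013-143235162, plus strand: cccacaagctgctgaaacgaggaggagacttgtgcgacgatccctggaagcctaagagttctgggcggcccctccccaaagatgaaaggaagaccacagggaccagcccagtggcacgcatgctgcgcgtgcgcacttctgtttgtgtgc
Zfp61, chr7:24299550-24299699, minus strand: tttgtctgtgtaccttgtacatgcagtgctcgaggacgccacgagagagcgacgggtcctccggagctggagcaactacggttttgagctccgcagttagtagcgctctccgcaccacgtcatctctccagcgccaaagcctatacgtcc
Zfp82, chr7:30072824-30072973, minus strand: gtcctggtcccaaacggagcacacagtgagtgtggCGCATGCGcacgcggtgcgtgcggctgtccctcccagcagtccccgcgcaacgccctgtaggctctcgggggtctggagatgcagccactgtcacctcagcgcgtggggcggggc
Zfp273, chr13:67813666-67813815, plus strand: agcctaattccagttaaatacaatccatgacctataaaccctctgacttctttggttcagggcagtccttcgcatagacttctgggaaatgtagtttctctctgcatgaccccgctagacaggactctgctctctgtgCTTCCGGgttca
Zfp472, chr17:32965681-32965830, plus strand: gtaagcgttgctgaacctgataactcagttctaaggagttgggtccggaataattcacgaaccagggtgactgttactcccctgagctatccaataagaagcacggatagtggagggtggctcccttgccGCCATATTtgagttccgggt
Zfp764, chr7:127406823-127406972, minus strand: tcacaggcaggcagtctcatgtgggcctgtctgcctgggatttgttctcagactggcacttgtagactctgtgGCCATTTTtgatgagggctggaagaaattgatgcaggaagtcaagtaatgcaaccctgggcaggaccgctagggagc

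The genes that KRAB zinc finger proteins recruit were read from a list of 18, all detected, with 34 probes. In EPM at 1 h 10 of the 34 were called lower (29.4%, against 21.4% of the other probes) and 2 higher (5.88%, against 10.8%). In BMDM 10 were lower (29.4%, against 20.0%) and 0 higher, against 10.6%. At 12 h 16 were lower (47.1%, against 34.7%) and 8 higher (23.5%, against 21.4%) in EPM, and 16 lower (47.1%, against 39.1%) and 7 higher (20.6%, against 31.3%) in BMDM. These differences were not tested. Trim28, the main co-repressor, went from 11.61 and 11.65 to 11.39 and 11.33 in EPM at 1 h (-0.27, adjusted p 0.0303) and by -0.21 in BMDM (adjusted p 0.106). Its largest change came in BMDM at 12 h, -1.01. Setdb1, which methylates histone H3, changed by -0.30 and -0.40 at 1 h. The 2 probes of Uhrf1 changed by -2.15 and -2.04 in BMDM at 12 h and by 0.17 (adjusted p 0.0603) and 0.27 (adjusted p 0.00421) in EPM, while a probe of Morc3 rose there by 1.42 and in EPM by 1.14.

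Other zinc finger names were counted in the same way. Of the other probes at 1 h, 21.4% were lower and 10.8% higher in EPM, and 20.0% and 10.6% in BMDM. Of 40 Zbtb probes, 15 were lower (37.5%) and 8 higher (20%) in EPM, and 16 (40%) and 8 (20%) in BMDM. Of 4 Zscan or Zkscan probes 2 were lower in each (50%) and 0 higher. Of 8 Zmym probes 3 were lower in EPM (37.5%) and 5 in BMDM (62.5%), and 0 higher. The 26 Zc3h probes, for CCCH proteins like Zfp36, had 3 lower (11.5%) and 7 higher (26.9%) in EPM and 2 (7.69%) and 5 (19.2%) in BMDM. Of 29 Zdhhc probes, for palmitoyltransferases that are not transcription factors, 7 were lower (24.1%) and 2 higher (6.9%) in EPM and 5 (17.2%) and 1 (3.45%) in BMDM. Differences between these lists and the Zfp members were not tested.

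Probes of the same gene did not always agree. In Zfp87 the 2 probes changed by -1.02 and 0.03 in BMDM at 1 h, and in Zfp74 the 3 probes ran from -0.83 to -0.02 in EPM at 1 h. Of 91 genes with several member probes, 13 of 364 gene and comparison pairs in macrophages (3.57%) had probes called in both directions, against 4.65% of the pairs from 4666 other genes. The widest difference was in Zfp106 in BMDM at 12 h. There 1 probe went from 9.90 and 9.78 to 10.48 and 10.40, a rise of 0.60, and another from 10.46 and 10.47 to 9.49 and 9.52, a change of -0.96. Both probes are assigned to the same transcript, NM_011743, so no single change can be given for the gene.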

How the data were processed

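Each array held 2 biological replicates of a condition, Cy5 and Cy3. The authors deposited scanner files with fluorescence intensities in arbitrary units, made by Agilent Feature Extraction 9.5.3.1 per the file headers, and a table of normalized linear intensities. Mean spot signals were background-corrected against median background signals (limma 3.58.1, normexp, offset 50), loess-normalized within arrays and quantile-normalized on average intensity between arrays. Single-channel log2 values were fitted with 12 condition means (lmFit, eBayes, 12 residual degrees of freedom), and p-values were adjusted by Benjamini-Hochberg over 30727 probes well above background in both channels of a condition. Cy5 minus Cy3 differences correlated at 0.23 to 0.59 over all 66 pairs of arrays, so dye was tried as a replicate block. Alternatives were offset 16, processed signal, other scalings, the authors' table, filters, 1 probe per gene, array means, threshold 0.01, exchanged B cell labels and each channel left out. Named probes were the largest changes per comparison (5 each way in macrophages, 3 in B cells) without overlap between channels, and the brightest, dimmest, opposite, shared and discordant members. Members and lists were chosen with earlier results of these data known. Control drift, brightness bins, the 12 h control for 1 h, differences between responses, symbols, positions, most motifs and promoters of other detected genes were added after seeing the data. Protein features were not analysed.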

Additional observations from a re-analysis of the deposited data

Results flagged for a closer look

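Responses that differed between groups by a direct test (limma, adjusted p below 0.05) were these. At 1 h, 21 Zfp probes (6.21%, against 4.23% of the other probes) responded lower in EPM than in BMDM and 12 (3.55%, against 4.05%) higher. At 12 h the counts were 43 (12.7%, against 23.7%) and 82 (24.3%, against 22.8%), or 9 and 182 with loess within arrays alone (2.66% and 53.8%, against 9.3% and 44.3%). Between 12 h and 1 h, the response was lower for 30 (8.88%, against 23.6%) and higher for 145 (42.9%, against 20.4%) in EPM. In BMDM it was lower for 62 (18.3%, against 30.2%) and higher for 131 (38.8%, against 27.2%). Against B cells at 1 h, the response was lower for 132 (39.1%, against 12.7%) and higher for 22 (6.51%, against 8.33%) in EPM, and lower for 119 (35.2%, against 9.39%) and higher for 12 (3.55%, against 6.71%) in BMDM. With the B cell labels exchanged, these last counts were 153, 44, 164 and 42 (45.3%, 13%, 48.5% and 12.4%, against 26.9%, 22.4%, 26.7% and 23.1%). With array means as samples, the counts for EPM against BMDM were 0 at both times. In the differences between cell types, the slide cannot be told apart from the cell type. The named probes below were called in opposite directions in EPM and BMDM. The log2 difference, EPM minus BMDM, was -1.81 for Zfp93 and -0.82 for Zfp655 at 1 h, and 0.99 for Zfp523, 0.98 for Zfp451 and -0.76 for Zfp291 at 12 h. For Zfp94 at 1 h the fitted value, 1.26, rests on a BMDM level at background after KLA and is not an exact size. The causes were not tested.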

How the results depend on the processing

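Of the 16 shares of member probes called, those of the macrophage comparisons stayed within 1.5 times the reported share under every alternative but those named here. Shares below are percents of member probes, lower then higher. Causes of the changes were not tested, except that array means and a stricter threshold leave fewer degrees of freedom or a stricter call by construction.

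With array means as samples (3 residual degrees of freedom), limma called 2.37 and 0.592 in EPM at 1 h, 0.888 and 2.37 in EPM at 12 h, 1.18 and 0 in BMDM at 1 h, and 8.58 and 3.85 in BMDM at 12 h. The other probes gave 0.107 and 0.776, 5.45 and 5.44, 0.0635 and 0.552, and 12.1 and 9.84. B cells gave 0 and 0 at both times, and the differences between EPM and BMDM gave 0 and 0 at both times. This fit also pools both control arrays of a cell type, which changes the contrast, and why calls were lost was not tested. The macrophage calls at 1 h as reported rest on the spread between the 2 channels of an array. The member medians with array means were -0.25 in both macrophage types at 1 h.

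With loess alone, BMDM at 12 h gave 10.9 higher, the difference between EPM and BMDM at 12 h gave 2.66 and 53.8, and B cells gave 14.2 and 1.18 at 1 h and 1.48 lower at 12 h. The other probes gave 19.8, then 9.3 and 44.3, then 9.69, 0.888 and 1.05. With the dye as a replicate block, the difference at 1 h gave 10.7 and 7.99, that at 12 h 19.2 lower, and B cells 10.9 and 5.62 at 1 h and 4.73 and 2.37 at 12 h. The other probes gave 8.58 and 8.19, then 30, then 7.44 and 7.25, and 4.48 and 6.03. At a threshold of 0.01, the difference at 1 h gave 3.55 and 2.07, that at 12 h 14.8 higher, and B cells 0.296 and 0.888 at 1 h and 0.888 and 0.296 at 12 h. The other probes gave 2.31 and 2.14, then 17.2, then 0.879 and 0.839, and 0.795 and 1.37. Against the 12 h control, chosen after seeing the data, BMDM at 1 h gave 8.88 higher and B cells 28.4 and 25.1, beside 16, 26.2 and 30.9 for the other probes.

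B cells moved under other settings too. They gave 1.48 and 1.48 at 1 h and 0.592 higher at 12 h with offset 16, 0.592 lower at 1 h and 0 higher at 12 h with the processed signal (limma), and 0 and 1.48 then 0.888 and 0.296 when fitted alone. The dimmer probes gave 1.4 higher at 1 h. The other probes gave 1.66, 1.9 and 2.26 with offset 16, 1.09 and 2.33 with the processed signal, 0.717 and 0.8 then 0.786 and 1.33 when fitted alone, and 2.31 among dimmer probes. The authors' table gave 21 and 25.7 at 1 h and 22.5 and 27.2 at 12 h, beside 25.2 and 24.6, then 26.2 and 26.6, for the other probes. Exchanged labels gave 22.8 and 27.2, then 26 and 27.5, beside 29.4 and 24.7, then 30.9 and 26.5.

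Leaving out a channel, with the lone channel assumed to vary like the other groups, gave B cells 0 to 1.48 lower and 0.592 to 1.48 higher at 1 h, where each of the 4 channels moved both shares. At 12 h it gave 0.592 to 1.78 lower and 0.296 to 0.592 higher. The share of probes higher in the difference at 1 h ranged from 1.78, without replicate 1 of EPM given KLA, to 3.56, and was 2.07 without replicate 1 of BMDM given DMSO. Shares of the other probes are not given with a channel left out, so these ranges are not compared with them.

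For single probes, 1088 alternatives were run: 995 kept direction and side of the threshold, 79 kept direction only and 14 reversed. Array means as samples gave the most losses: 17 named changes kept both, 40 kept direction only and 1 reversed. That fit also pools both control arrays of a cell type and leaves fewer degrees of freedom, and the cause of the losses was not tested. The named calls as reported rest on the spread between channels of an array. The reversals were all in B cells. The authors' table and the exchanged labels gave Zfp608 -0.38 and -0.34, Zfp75 0.66 and 0.63, Zfp95 -0.16 and -0.08, Zfp593 -0.14 and -0.21, and Zfp451 0.24 and 0.21. Zfp691 was -0.03 with array means and -0.55 against the 12 h control, where Zfp667 was 0.02 and Zfp51 0.07.

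The limits are these. Each condition has 2 replicates on 1 array. Median signal over background was 1.77 to 3.06, so falls of dim probes are bounded by background. EPM and B cells lack a vehicle control at 1 h. Probe names are older than present symbols, and the design does not separate slide from cell type.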
